A study of Oryza sativa with 24 samples.

Results

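H3K27me3, the trimethylated form of lysine 27 on histone H3, was mapped in seedling shoots of the parental rice lines Nipponbare, a japonica cultivar, and 93-11, an indica cultivar. All peaks of both deposited lists were taken, 17479 in Nipponbare and 18761 in 93-11, which is 36240 of the 410072 peaks in the 16 lists of the series. Each peak was called shared when it overlapped a peak of the other parent by at least 1 bp, and otherwise Nipponbare-only or 93-11-only. The other lists held H3K4me3, H3K9ac and DNA methylation (measured with McrBC, an enzyme that cuts methylated DNA) in the same lines, and all marks in their reciprocal F1 crosses, labelled Nipponbare/93-11 and 93-11/Nipponbare. Every line was grown in soil for 4 weeks and harvested at the 4-leaf stage with no other treatment named. Shoots hold many cell types, so a peak can come from some of the cells only, and fewer cells with a mark and less mark per cell cannot be told apart. There was 1 library per line and mark. No difference between lines was therefore tested, no p-value is given, and the 95% intervals below are exact Clopper-Pearson intervals that cover counting error only.

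H3K27me3 is deposited by the Polycomb repressive complex and marks genes that are kept silent in a tissue. In plants it lies mostly over single genes, often those of developmental regulators that act in other organs or at other stages, and it can be lost or gained when a gene changes its state. H3K4me3 and H3K9ac are marks of the starts of transcribed genes. DNA methylation in plants is densest over transposable elements. Positions are those of the deposited lists, whose genome build is not given in the sources used here. No gene could be paired with a peak, so regions are named by position and by the other marks listed there.

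Peak widths were similar in both parental lists. The median peak was 1445 bp wide in Nipponbare and 1426 bp wide in 93-11, and the middle 50% of peaks lay between 1098 and 1985 bp in Nipponbare and between 1080 and 1972 bp in 93-11. The peaks covered 28.4 Mb in Nipponbare and 30.3 Mb in 93-11, or 7.63% and 8.14% of the chromosome length spanned by the lists. Peaks of 3000 bp or more made up 5.37% of the Nipponbare list and 5.73% of the 93-11 list. Of those, 51 peaks in Nipponbare and 46 in 93-11 reached 5000 bp, and the widest was 10286 bp in Nipponbare and 10618 bp in 93-11. The median H3K4me3 peak was 1354 bp wide in Nipponbare and 1396 bp in 93-11, and peaks of 3000 bp or more were rarer for that mark, at 1.80% and 2.15%. H3K9ac peaks had wider medians than H3K27me3, 1503 bp in Nipponbare and 1446 bp in 93-11, with 3.35% and 2.79% of 3000 bp or more. For DNA methylation the medians were 1461 and 1454 bp, and peaks of 3000 bp or more were commoner than for H3K27me3, at 10.5% and 10.7%.

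Most H3K27me3 peaks of each parent were listed in the other. Of the Nipponbare peaks 3902, or 22.3% (95% interval 21.7 to 22.9%), were Nipponbare-only, and of the 93-11 peaks 5183, or 27.6% (26.99 to 28.3%), were 93-11-only. With the 93-11 list shortened to its widest peaks, to the length of the Nipponbare list, 74.8% of peaks were shared in each direction. Since shared peaks paired almost one to one, lists of equal length must give nearly equal shares, and this value says nothing of whether either line has more of its own peaks. Counted in bases, 20.9 Mb carried the mark in both parents, which is 73.5% of the marked bases of Nipponbare and 68.9% of those of 93-11. Single-parent peaks held 5.43 Mb in Nipponbare and 6.81 Mb in 93-11. Read depth is unknown, so the length of a list cannot be read as an amount of the mark.

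The 1 bp threshold left few peaks close to the line. Of the shared peaks, 9 in Nipponbare and 12 in 93-11 overlapped their partner by under 100 bp, and the smallest overlap was 2 bp. The median shared peak was overlapped over 96.9% of its width in Nipponbare and 94.0% in 93-11. On the other side of the threshold, 21 Nipponbare-only and 29 93-11-only peaks ended under 100 bp from a peak of the other parent, 135 and 183 under 500 bp. The median distance to the nearest peak of the other parent was 6528 bp for Nipponbare-only and 6273 bp for 93-11-only peaks. At 152 Nipponbare-only and 142 93-11-only peaks it was over 50 kb.

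Sharing varied with peak width, with the highest shares at intermediate widths. Of peaks under 750 bp, 54.5% (50.6 to 58.3%) in Nipponbare and 39.2% (35.8 to 42.7%) in 93-11 were listed in the other parent. Of peaks from 2000 to under 3000 bp, 88.0% (86.9 to 89.1%) in Nipponbare and 88.6% (87.5 to 89.7%) in 93-11 were. The share was lower again among peaks of 4000 to under 5000 bp, at 74.2% (63.8 to 82.9%) of 89 peaks in Nipponbare and 69.7% (61.1 to 77.4%) of 132 peaks in 93-11. The parents differed mainly at the narrow end: from 750 to under 1000 bp the shares were 61.4% (59.4 to 63.3%) and 46.4% (44.5 to 48.3%), while from 1500 to under 2000 bp they were 84.5 and 85.3%. Single-parent peaks had medians of 1193 bp in Nipponbare and 1109 bp in 93-11, and shared peaks medians of 1525 and 1567 bp. Peaks of 3000 bp or more still numbered 144 among Nipponbare-only and 210 among 93-11-only peaks.

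**Figure D1:**
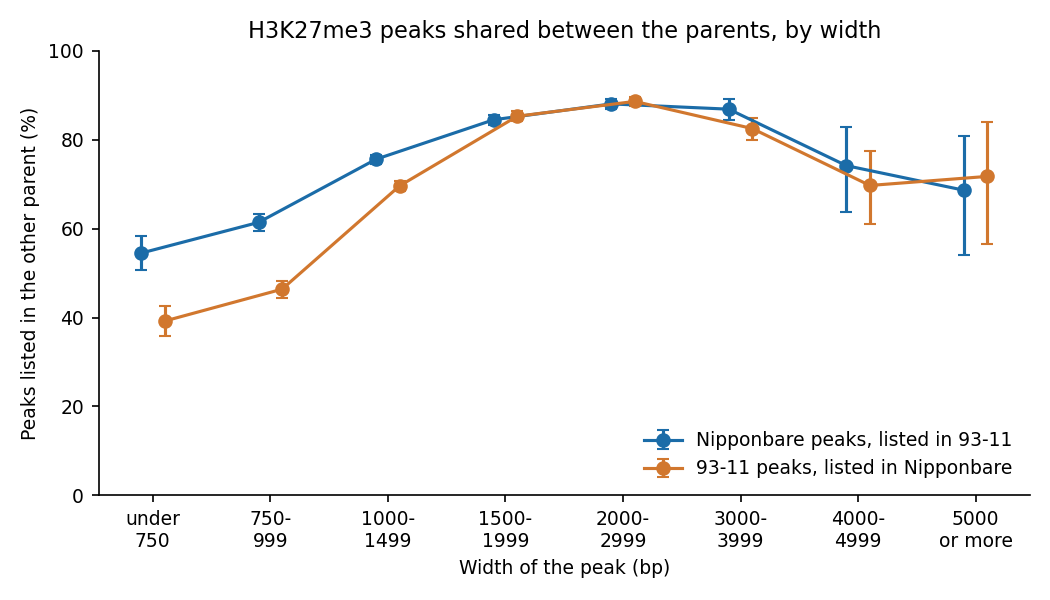
The percentage of H3K27me3 peaks listed in the other parent (vertical axis) is plotted by peak width in bp (horizontal axis) for Nipponbare peaks (blue) and 93-11 peaks (orange), with exact 95% intervals. Both curves are highest from 2000 to under 3000 bp, at 88.0 and 88.6%, and they are farthest apart among peaks under 1000 bp.

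The widest single-parent domains differed in which other marks were listed there. Of the 5 widest Nipponbare-only peaks, those at chr12:23966670-23976956 (10286 bp) and at chr8:7249687-7256333 (6646 bp) had H3K4me3 and H3K9ac in Nipponbare and both hybrids and no histone mark in 93-11. At chr7:1920560-1930288 (9728 bp) and at chr2:24011993-24020767 (8774 bp), both active marks were listed in all 4 lines. H3K27me3 of the chromosome 7 domain was also listed in both hybrids, and that of the chromosome 2 domain in Nipponbare alone. The fifth, at chr4:20092627-20099028 (6401 bp), was listed in Nipponbare and 93-11/Nipponbare.

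Of the 5 widest 93-11-only peaks, 3 were at places where both active marks were listed in all 4 lines. They lay at chr10:4889446-4900064 (10618 bp), at chr2:31656476-31665489 (9013 bp) and at chr1:30667028-30674084 (7056 bp). The chromosome 10 and chromosome 1 domains were listed in both hybrids too, and the chromosome 2 domain in neither. At chr4:9073666-9081462 (7796 bp), H3K27me3 was listed in 93-11 alone, and no H3K4me3 in any line. The domain at chr3:13457589-13463711 (6122 bp) recurred in each hybrid, and there every line except 93-11 listed H3K4me3. It overlapped DNA methylation in both parents and in Nipponbare/93-11.

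Shared peaks nearly always paired one to one. Of 13544 shared regions, 13480 joined 1 Nipponbare peak with 1 93-11 peak. In 31 regions a single Nipponbare peak spanned 2 peaks of 93-11, in 30 regions a single 93-11 peak spanned 2 of Nipponbare, and 3 regions had 2 of each. Domains split in 1 line were thus about as few in each direction.

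At the 13480 paired regions the boundaries were close together. The median offset between the edges of the 2 lines was 93 bp and that between the midpoints 79 bp. Both edges lay within 250 bp of each other in 65.1% of regions, and within 100 bp in 28.0%. The Nipponbare peak lay inside the 93-11 peak in 4372 regions, the 93-11 peak inside the Nipponbare peak in 3076, and in 6032 the peaks were staggered. The median width was 1525 bp in Nipponbare and 1567 bp in 93-11, and the median log2 ratio of widths, Nipponbare over 93-11, was -0.034. Across regions the log2 widths of the lines had a Pearson correlation of 0.797 (Spearman 0.806 on the widths), a description over 13480 regions of the same pair of libraries.

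A minority of shared domains were much wider in 1 parent. Of the 13480 regions 585, or 4.34% (4.00 to 4.70%), were at least 1.5-fold wider in Nipponbare and 698, or 5.18% (4.81 to 5.57%), at least 1.5-fold wider in 93-11. The counts also lay higher on the 93-11 side with 50% reciprocal overlap (378 wider in Nipponbare and 512 wider in 93-11), between lists of equal length (481 and 696) and with peaks under 500 bp apart merged (610 and 770). They did so with a 500 bp tolerance (580 and 702) and with widths summed over all shared regions (590 and 704). At 2-fold there were 195 wider in Nipponbare and 183 wider in 93-11. Centring the ratios on their median, which moves every ratio alike, gave 647 and 613. Both shares were lowest in the widest domains, with 4.58% wider in Nipponbare and 6.91% wider in 93-11 among regions under 1000 bp (geometric mean of both lines) and 3.19% in each direction among the 690 regions of 3000 bp or more.

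The reciprocal hybrids, which hold the same parental genomes, gave a benchmark for these differences. Between Nipponbare/93-11 and 93-11/Nipponbare, 2.39% of 17652 paired H3K27me3 regions were at least 1.5-fold wider in Nipponbare/93-11 and 3.06% in 93-11/Nipponbare. The SD of the log2 width ratio was 0.37 between the parents and 0.29 between the hybrids. Paired H3K4me3 regions of the parents passed 1.5-fold in 2.48% of cases toward Nipponbare and 3.88% toward 93-11, and H3K9ac regions in 5.36% and 1.84%. DNA methylation regions did so in 8.82% and 10.3%. Between the hybrids, H3K4me3 regions passed in 1.03% of cases toward Nipponbare/93-11 and 3.93% toward 93-11/Nipponbare, H3K9ac regions in 2.58% and 2.59%, and DNA methylation regions in 3.03% and 3.24%. These are differences between single libraries, and no test of the difference between marks or between pairs could be made.

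**Figure D2:**
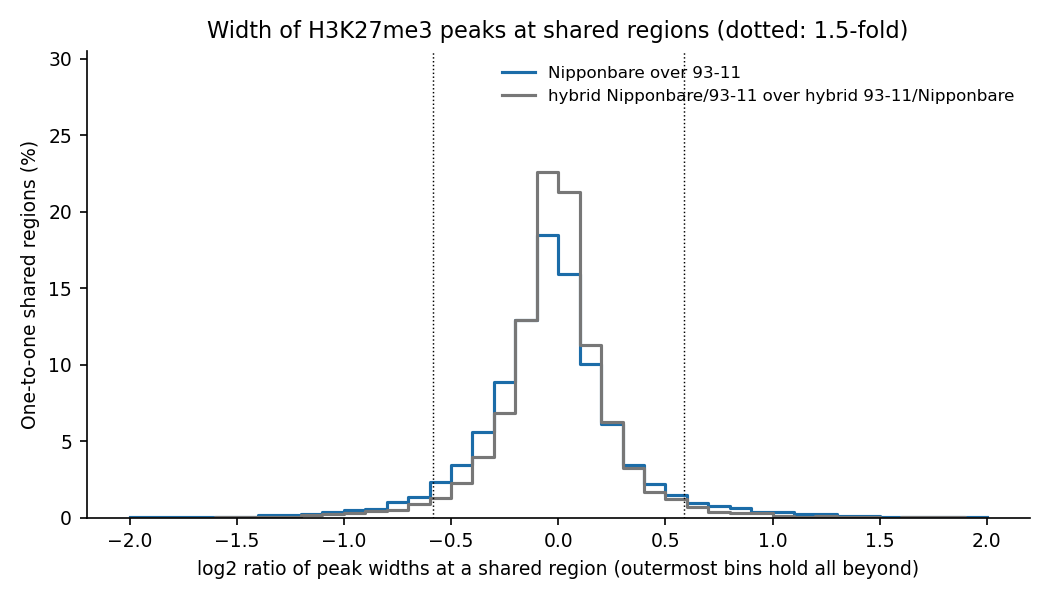
The distribution of the log2 width ratio at paired H3K27me3 regions (horizontal axis) is drawn as the percentage of regions per bin (vertical axis) for Nipponbare over 93-11 (blue) and for the hybrid Nipponbare/93-11 over the hybrid 93-11/Nipponbare (grey), with dotted lines at 1.5-fold. Both distributions centre close to 0, with medians of -0.034 and -0.0094, and that of the parents is broader, with an SD of 0.37 against 0.29.

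Where a domain was wider in 1 parent, the added stretch mostly lay on 1 side. Of the 585 regions wider in Nipponbare, 411 reached at least 250 bp past the 93-11 peak at 1 edge and less at the other, 168 did so at both edges, and 6 at neither. Of the 698 regions wider in 93-11, 540 extended at 1 edge, 144 at both and 14 at neither. The side was balanced along the coordinate axis, with 216 to the left and 195 to the right in Nipponbare and 281 and 259 in 93-11; strand was not known. The larger of the 2 extensions had a median of 941 bp in regions wider in Nipponbare and 752 bp in regions wider in 93-11, and it passed 1000 bp in 268 and 262 regions. Median widths in regions wider in Nipponbare were 2239 bp in Nipponbare and 1112 bp in 93-11. In regions wider in 93-11 they were 1079 bp in Nipponbare and 2029 bp in 93-11.

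H3K4me3 was listed more often on such stretches in the parent that carried H3K27me3 there, and for H3K9ac this held on the Nipponbare side. The 747 stretches of at least 250 bp marked in Nipponbare and not in 93-11 overlapped H3K4me3 in 49.0% of cases in Nipponbare and 31.2% in 93-11, and H3K9ac in 60.1% and 36.8%. The 828 stretches marked in 93-11 and not in Nipponbare overlapped H3K4me3 in 37.6% of cases in Nipponbare and 44.3% in 93-11, and H3K9ac in 52.4% and 53.3%. DNA methylation was listed on a minority of them in either parent: on 14.2% in Nipponbare and 13.5% in 93-11 of the first kind, and on 11.7% and 9.54% of the second.

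Active peaks at regions wider in Nipponbare were also more often wider there. Where 1 H3K4me3 peak was listed in each parent, the H3K4me3 peak was at least 1.5-fold wider in Nipponbare in 46 of 322 such regions (14.3%) and in 8 (2.48%) wider in 93-11. In regions whose H3K27me3 widths lay within 1.5-fold, these shares were 1.47% and 2.62% of 9242. For H3K9ac they were 19.4% and 1.19% of 335 at regions wider in Nipponbare, and 3.49% and 1.46% of 9379 at regions within 1.5-fold. At regions wider in 93-11, H3K4me3 was wider in Nipponbare in 9 of 385 (2.34%) and wider in 93-11 in 23 (5.97%), and H3K9ac in 3.39% and 3.63% of 413. The marks come from separate libraries of whole shoots, so joint widening on the same chromatin was not measured.

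In the hybrids, domains that differed between the parents had intermediate medians, nearer to the wider parent. These domains were chosen for a large ratio between single parental libraries, so any further library would tend to fall between the parental widths. The intermediate medians are therefore not read as a trait of the hybrids. Among 509 regions wider in Nipponbare with exactly 1 peak in each hybrid, median widths were 2178 bp in Nipponbare and 1086 bp in 93-11, with 1825 bp in Nipponbare/93-11 and 1807 bp in 93-11/Nipponbare. Among 618 regions wider in 93-11 they were 1080 bp in Nipponbare and 2015 bp in 93-11, with 1638 bp in Nipponbare/93-11 and 1693 bp in 93-11/Nipponbare. On a log scale the Nipponbare/93-11 peak was closer to the wider parent in 75.8% of the first set and 68.0% of the second, and the 93-11/Nipponbare peak in 76.0 and 72.3%. The same count at regions within 1.5-fold was 65.2% in Nipponbare/93-11 and 67.7% in 93-11/Nipponbare. Hybrid peaks at those regions were wider than the parental ones, with medians of 1659 and 1676 bp against 1557 bp in Nipponbare and 1592 bp in 93-11. The Nipponbare/93-11 peak was wider than both parents in 139 of the 509 regions and the 93-11/Nipponbare peak in 155, and they were narrower than both in 28 and 21. Of the 618 regions wider in 93-11, these counts were 167 and 195 wider and 49 and 39 narrower. At the 11405 regions within 1.5-fold, hybrid peaks wider than both parents numbered 5184 in Nipponbare/93-11 and 5534 in 93-11/Nipponbare. Those narrower than both numbered 2295 and 2066. Parental widths lie close together at these regions by selection, which leaves little room between them, so these counts are not a contrast with the other sets.

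Single regions showed how far domains spread. At chr8:20149449-20153006 the domain was 3557 bp wide in Nipponbare and 687 bp in 93-11, a 5.18-fold ratio, and 1533 and 1904 bp in Nipponbare/93-11 and 93-11/Nipponbare, with DNA methylation listed in 93-11 and 93-11/Nipponbare. At chr11:5996841-5999898 widths were 3057 bp in Nipponbare and 657 bp in 93-11, with 1525 bp in Nipponbare/93-11 and 2418 bp in 93-11/Nipponbare, and H3K4me3 was listed in all but 93-11. At chr12:19860487-19863488 the domain was 3001 bp wide in Nipponbare, 679 bp in 93-11 and 3137 and 3190 bp in the hybrids, with no other mark in any line. These 3 domains thus ran from hybrids between the parents to hybrids wider than both. The other 2 of the 5 largest ratios toward Nipponbare lay on chromosomes 11 and 5. At chr11:22224987-22228507 widths were 3520 bp in Nipponbare, 773 bp in 93-11 and 823 bp in Nipponbare/93-11, there close to the narrower parent. H3K27me3 was also listed there in 93-11/Nipponbare, with no single width given. At chr5:17439265-17442940 they were 3675 bp in Nipponbare and 820 bp in 93-11, with 1879 bp in Nipponbare/93-11 and 3352 bp in 93-11/Nipponbare.

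In the opposite direction, the largest ratio was 6.13-fold, on chromosome 7, where the 93-11 domain ran from 18263520 to 18268831 and the Nipponbare peak of 867 bp began at 18267870. Neither hybrid listed H3K27me3 at that region. At chr1:26206772-26212162 widths were 1034 bp in Nipponbare and 5390 bp in 93-11, with 5341 bp in Nipponbare/93-11 and 3404 bp in 93-11/Nipponbare. H3K4me3 was listed there in all lines but Nipponbare. At chr10:19345320-19348512 they were 673 bp in Nipponbare and 3192 bp in 93-11, with 3044 bp in Nipponbare/93-11 and 2577 bp in 93-11/Nipponbare. Of these regions, the hybrids differed most at chr9:13976853-13983972, where the widths were 1811 bp in Nipponbare and 7017 bp in 93-11, with 2449 bp in Nipponbare/93-11 and 7098 bp in 93-11/Nipponbare. The last of the 5, at chr3:8470092-8473796, was 944 bp wide in Nipponbare, 3704 bp in 93-11 and 518 bp in 93-11/Nipponbare, and was not listed in Nipponbare/93-11.

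The 5 widest shared domains were ranked by the summed width of both parents, a choice that favours domains wide in both. At chr3:26023675-26031772 the domain was 7797 bp wide in Nipponbare and 8097 bp in 93-11, with both active marks in all 4 lines. At chr1:25513548-25521006 widths were 7458 bp in Nipponbare and 7226 bp in 93-11, and from 34239767 to 34246708 they were 6883 and 6939 bp. From 39002566 to 39009958 on the same chromosome the domain was 7284 bp wide in Nipponbare and 5965 bp in 93-11 and was not listed in Nipponbare/93-11. From 41676297 to 41682781 it was 6293 bp in Nipponbare and 6458 bp in 93-11, and neither parent listed an active mark there. The largest log2 ratio of these 5 domains was 0.29.

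Other marks separated Nipponbare-only from 93-11-only peaks. At Nipponbare-only peaks, H3K4me3 was listed on 68.3% (66.8 to 69.7%) in Nipponbare and 39.5% (37.9 to 41.0%) in 93-11, and H3K9ac on 73.4% (72.0 to 74.8%) and 42.2% (40.7 to 43.8%). At 93-11-only peaks the parents lay much closer together: H3K4me3 was listed on 52.0% (50.6 to 53.3%) in Nipponbare and 59.5% (58.1 to 60.8%) in 93-11, and H3K9ac on 56.1% (54.7 to 57.4%) and 64.5% (63.2 to 65.8%). Shared peaks of the Nipponbare list had H3K4me3 on 77.2% in Nipponbare and 79.9% in 93-11, and H3K9ac on 80.0 and 81.9%. DNA methylation was listed on 12.99% of Nipponbare-only peaks in Nipponbare and 13.5% in 93-11, and on 15.7% (14.7 to 16.7%) of 93-11-only peaks in Nipponbare and 12.1% (11.2 to 13.02%) in 93-11. At shared peaks of the Nipponbare list it was listed on 9.77 and 10.04%.

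**Figure D3:**
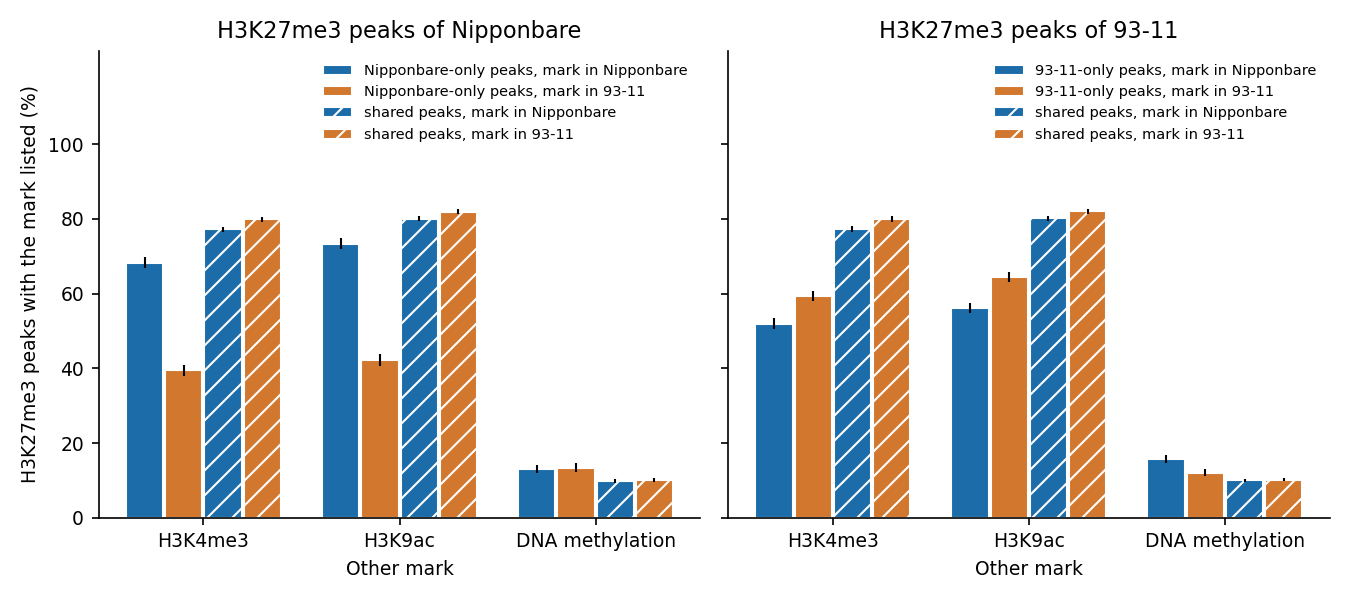
Bars give the percentage of H3K27me3 peaks (vertical axis) of the Nipponbare list (left panel) and the 93-11 list (right panel) that overlap H3K4me3, H3K9ac or DNA methylation in Nipponbare (blue) and in 93-11 (orange), for single-parent peaks (plain) and shared peaks (hatched), with exact 95% intervals. At Nipponbare-only peaks the active marks are listed far less often in 93-11, at 39.5 and 42.2%, than in Nipponbare, at 68.3 and 73.4%.

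The single-parent peaks could be sorted by whether either active mark was listed in each parent. Of Nipponbare-only peaks, 43.2% (41.6 to 44.7%) had an active mark in both parents. A further 34.3% (32.9 to 35.9%) had an active mark in Nipponbare and none in 93-11, 2.05% the reverse, and 20.5% none in either. Of 93-11-only peaks, 56.7% (55.3 to 58.0%) had an active mark in both parents, 11.1% (10.3 to 12.02%) in 93-11 and not in Nipponbare, 2.97% the reverse, and 29.2% none in either. The class with active marks in the line of the peak alone thus made up about 3 times as large a share of Nipponbare-only as of 93-11-only peaks. Shared peaks of the Nipponbare list had an active mark in both parents in 81.7% of cases. The class with active marks in the own line alone made up 3.17% of shared Nipponbare and 4.23% of shared 93-11 peaks. Over the whole lists, 13.4% of Nipponbare and 11.1% of 93-11 H3K4me3 peaks were unshared, and 17.0% and 12.2% of H3K9ac peaks. How far this asymmetry of the active lists enters the contrast was not tested. Whether 93-11 carries the sequence of each Nipponbare-only region was not tested.

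DNA methylation was listed more often in Nipponbare than in 93-11 at some of these classes. At 93-11-only peaks with an active mark in 93-11 and none in Nipponbare, 32.2% overlapped DNA methylation in Nipponbare and 16.3% in 93-11. At 93-11-only peaks with no active mark in either parent the values were 24.97% in Nipponbare and 16.8% in 93-11. Nipponbare-only peaks with an active mark in Nipponbare and none in 93-11 had it on 14.1% in Nipponbare and 15.3% in 93-11. Where an active mark was listed in both parents, DNA methylation lay on 8.97% of Nipponbare-only peaks in Nipponbare and 9.26% in 93-11. In that class, the largest of the 93-11-only peaks, it lay on 7.76% of them in Nipponbare and 8.78% in 93-11. The whole DNA methylation list held 24126 peaks in Nipponbare and 22332 in 93-11.

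The hybrids listed just under every second single-parent peak together. Both hybrids listed 1844 Nipponbare-only and 2436 93-11-only peaks, and 28.6% (27.2 to 30.1%) of the Nipponbare-only set and 26.3% (25.1 to 27.5%) of the 93-11-only set were absent from both. At shared peaks of the Nipponbare list, neither hybrid listed 1.47%. The 2 hybrids leaned to opposite sides by a small margin: of Nipponbare-only peaks, 14.5% (13.4 to 15.6%) were in Nipponbare/93-11 alone and 9.61% (8.70 to 10.6%) in 93-11/Nipponbare alone. Of 93-11-only peaks, 11.2% (10.4 to 12.1%) were in Nipponbare/93-11 alone and 15.4% (14.5 to 16.4%) in 93-11/Nipponbare alone. The share listed in both hybrids was lowest among the narrowest single-parent peaks. From 2000 to under 3000 bp, 71.3% (66.5 to 75.6%) of the Nipponbare-only set were, against 26.4% (24.0 to 29.0%) under 1000 bp. In the 93-11-only set these shares were 63.5% (58.5 to 68.3%) and 33.0% (30.9 to 35.2%). Among the widest peaks, of 3000 bp or more, the shares were lower again, at 54.2% (45.7 to 62.5%) of 144 Nipponbare-only peaks and 105 of 210 93-11-only peaks. Among Nipponbare-only peaks the share was 53.6% (50.9 to 56.3%) where the active marks were listed in Nipponbare alone and 41.2% (37.8 to 44.7%) where neither parent listed one. Among 93-11-only peaks it was 51.0% (46.8 to 55.1%) where the active marks were listed in 93-11 alone. It was 36.3% (33.9 to 38.8%) where neither parent listed one. With an active mark in both parents, Nipponbare-only peaks stood at 45.2% (42.8 to 47.6%). Such 93-11-only peaks stood at 51.7% (49.9 to 53.5%), level with those marked in 93-11 alone. Median widths in the own-line, neither and both classes were 1314, 1175.5 and 1098 bp for Nipponbare-only peaks. For 93-11-only peaks they were 1235, 1102.5 and 1087 bp. The part of width in these contrasts was not tested.

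Spacing of H3K27me3 peaks was described by the gaps between neighbours, with no comparison to random spacing. The median gap between neighbouring peaks was 11822 bp in Nipponbare and 10556 bp in 93-11, and 21.1% and 23.5% of gaps were under 5 kb. Chaining peaks by such gaps gave 602 clusters of 3 or more peaks in Nipponbare, with 2019 peaks, and 840 in 93-11, with 2815. Single-parent peaks were about as frequent inside these clusters as outside: 21.6% and 22.4% of Nipponbare peaks, and 28.7% and 27.4% of 93-11 peaks. The longest gap without a peak was 689461 bp in Nipponbare and 632648 bp in 93-11.

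The clusters with most peaks had peaks of both parents. At chr1:1332682-1361682, a cluster of 7 Nipponbare peaks had 7 peaks in each other line as well. At chr9:12683220-12712843 there were 7 peaks in Nipponbare and 6 in 93-11, and at chr1:7900517-7930709 there were 7 and 4. The largest 93-11 cluster, at chr2:21253450-21290978, held 7 peaks in Nipponbare and 9 in 93-11, and DNA methylation numbered 7 peaks in Nipponbare and 0 in 93-11 and both hybrids. The next, at chr7:21826410-21867238 and at chr5:25582867-25619106, held 7 and 5 peaks in Nipponbare and 8 in 93-11 each.

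Single-parent peaks followed one another along a chromosome, more so in Nipponbare. After a Nipponbare-only peak the next Nipponbare peak was also Nipponbare-only in 29.1% (27.7 to 30.6%) of cases, and after a shared peak in 20.4% (19.7 to 21.1%). For 93-11-only peaks these values were 30.5% (29.2 to 31.7%) and 26.5% (25.8 to 27.3%). Stretches of at least 3 Nipponbare-only peaks in a row numbered 232, and such runs of 93-11-only peaks 331, which held 912 and 1181 peaks. Between lists of equal length, which brings the numbers of single-parent peaks to near equality, there were 293 runs in Nipponbare and 236 in 93-11. Over the full lists, runs of 5 or more numbered 54 in Nipponbare and 44 in 93-11. Chromosomes 11 and 12 held 31 and 24 of the 232 Nipponbare runs, and 28 and 18 of the 331 in 93-11.

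Runs between the hybrids were shorter. Peaks of Nipponbare/93-11 not listed in 93-11/Nipponbare formed 33 runs of 3 or more, and those of 93-11/Nipponbare not listed in Nipponbare/93-11 formed 46, none longer than 4 peaks. Runs held 23.4% of Nipponbare-only and 22.8% of 93-11-only peaks, against 4.08 and 5.26% of the unshared peaks of the hybrids. The share of unshared peaks was itself lower in the hybrids, at 12.5 and 13.01% of their lists. For H3K4me3, where 13.4% of Nipponbare and 11.1% of 93-11 peaks were unshared, the runs held 23.2% of Nipponbare-only and 7.05% of 93-11-only peaks. For H3K9ac, with 17.0% and 12.2% unshared, they held 24.2% and 6.76%, and for DNA methylation, with 45.8% and 41.7% unshared, 48.4% and 40.5%. A larger unshared share itself gives more runs, so these values are not a contrast between marks, and no test of the differences was made.

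**Figure D4:**
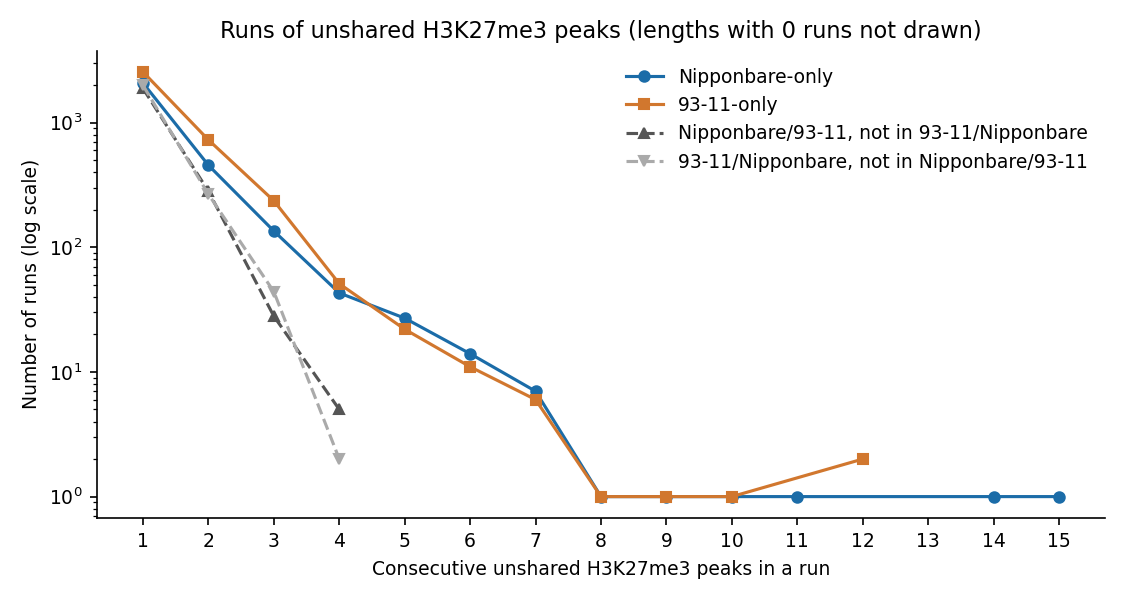
The number of runs (vertical axis, log scale) is plotted by the number of consecutive unshared H3K27me3 peaks in a run (horizontal axis) for Nipponbare-only (blue), 93-11-only (orange) and the peaks of each hybrid not listed in the other (grey, dashed). Runs of the parents reach 15 and 12 peaks, and those of the hybrids end at 4.

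Runs differed from one another in whether the active marks went with H3K27me3. In 149 of the 232 Nipponbare runs, 93-11 had 0 H3K27me3 peaks anywhere in the span, and in 30 of them 0 histone peaks of any kind. In 198 of the 331 runs of 93-11, Nipponbare had 0 H3K27me3 peaks in the span, and in 20 of them 0 histone peaks. Over all Nipponbare runs H3K4me3 peaks numbered 1082 in Nipponbare and 624 in 93-11, H3K9ac peaks 1209 and 651, and DNA methylation peaks 1419 and 1033. Over all runs of 93-11 the active marks were about level, with 1305 H3K4me3 peaks in Nipponbare and 1231 in 93-11 and 1406 and 1352 H3K9ac peaks. DNA methylation peaks were more numerous in Nipponbare there too, at 1415 against 1210 in 93-11. The whole DNA methylation list was also longer in Nipponbare, with 24126 peaks against 22332 in 93-11. The hybrids listed 744 and 699 H3K27me3 peaks across the Nipponbare runs and 904 and 950 across those of 93-11 (Nipponbare/93-11 and 93-11/Nipponbare in turn).

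The longest Nipponbare run lay at chr12:6300713-6566999 (266 kb). Nipponbare listed 15 H3K27me3 peaks there and 93-11 listed 3, while Nipponbare/93-11 had 13 and 93-11/Nipponbare had 14. H3K4me3 peaks came to 12 in Nipponbare and 4 in 93-11, with 11 in Nipponbare/93-11 and 10 in 93-11/Nipponbare. The 3 peaks of 93-11 stood at other positions of the span. The second lay on the same chromosome from 8036686 to 8706573, with 14 H3K27me3 peaks in Nipponbare against 3 in 93-11, and 12 and 11 in Nipponbare/93-11 and 93-11/Nipponbare. DNA methylation peaks came to 50 in Nipponbare and 34 in 93-11, with 43 in Nipponbare/93-11 and 51 in 93-11/Nipponbare. The third lay at chr7:6500356-6656914 (157 kb), with 11 H3K27me3 peaks in Nipponbare against 0 in 93-11, while Nipponbare/93-11 listed 11 and 93-11/Nipponbare 9. H3K4me3 peaks were listed in both parents in all 3 spans, with 12, 20 and 6 in Nipponbare and 4, 6 and 3 in 93-11, and whether they are the same peaks was not counted.

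The longest runs of 93-11-only peaks held 12, 12 and 10 peaks. At chr7:9511202-9846825 (336 kb), Nipponbare listed 2 H3K27me3 peaks and 93-11 listed 12, with 11 in Nipponbare/93-11 and 9 in 93-11/Nipponbare, while H3K4me3 was level with 19 peaks in Nipponbare and 17 in 93-11. At chr1:14977143-15141218 (164 kb), Nipponbare had 0 H3K27me3 and 0 H3K4me3 peaks, against 12 and 8 in 93-11, while Nipponbare/93-11 listed 10 H3K27me3 peaks and 93-11/Nipponbare 9. For H3K9ac the parents had 5 and 13 peaks (Nipponbare and 93-11). At chr3:13347340-13484353 (137 kb), Nipponbare had 0 H3K27me3 peaks and 93-11 had 10, each hybrid had 8, and H3K4me3 peaks numbered 8 in Nipponbare and 6 in 93-11. The run on chromosome 3 holds the 6122 bp domain described above.

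Along the genome the parents had the same broad distribution of H3K27me3. Over 366 windows of 1 Mb, the numbers of peaks in Nipponbare and 93-11 had a Pearson correlation of 0.942 (Spearman 0.939), a description over windows of the same pair of libraries. 93-11 had more peaks than Nipponbare in 249 windows, fewer in 91 and as many in 26. By chromosome, density was highest on chromosome 3 (54.5 peaks per Mb in Nipponbare and 60.6 in 93-11) and chromosome 1 (53.5 and 58.9), and lowest on chromosome 12 (39.1 and 39.2). Median width varied little, from 1414 to 1472 bp in Nipponbare and from 1362 to 1461 bp in 93-11.

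Single-parent peaks were spread less evenly in Nipponbare than in 93-11. Nipponbare-only peaks made up 28.9% (26.4 to 31.5%) of the Nipponbare list on chromosome 11 and 27.5% (24.9 to 30.3%) on chromosome 12, against 17.9% (16.2 to 19.6%) on chromosome 3 and 19.3% (17.2 to 21.6%) on chromosome 5. The share of 93-11-only peaks lay between 26.1% (24.2 to 28.1%) on chromosome 2 and 30.0% (27.5 to 32.6%) on chromosome 8. Chromosome 11 was the only one on which Nipponbare had more peaks than 93-11, 1276 against 1270. Regions wider in Nipponbare were also commonest on chromosomes 11, 10 and 12, at 6.46, 6.43 and 6.21% of paired regions, against 2.98% on chromosome 1, and regions wider in 93-11 ranged from 3.98% on chromosome 8 to 6.46% on chromosome 9.

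**Figure D5:**
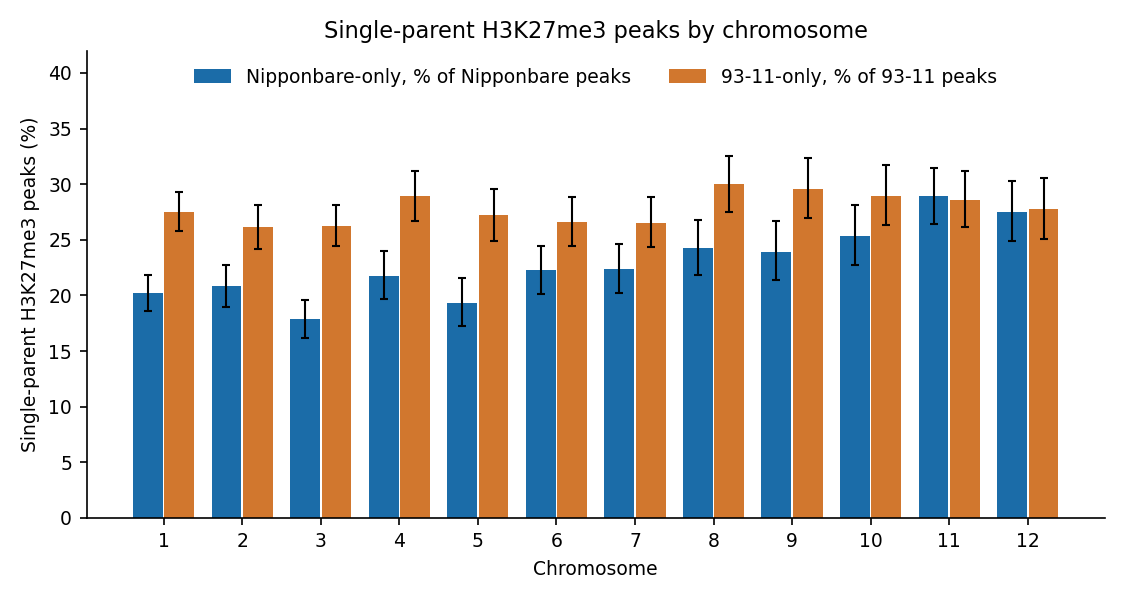
Bars give the percentage of H3K27me3 peaks that were listed in 1 parent only (vertical axis) on each of the 12 chromosomes (horizontal axis), for the Nipponbare list (blue) and the 93-11 list (orange), with exact 95% intervals. Nipponbare-only shares range from 17.9% on chromosome 3 to 28.9% on chromosome 11, and 93-11-only shares from 26.1 to 30.0%.

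Within chromosomes, Nipponbare-only peaks were relatively most frequent where the mark was sparse. When each chromosome was divided into 10 equal parts, the fifth part had 30.7 peaks per Mb in Nipponbare and 30.3 in 93-11, the lowest densities, and 28.8% (26.2 to 31.5%) of its Nipponbare peaks were Nipponbare-only. In the ninth part, with 57.4 peaks per Mb in Nipponbare and 65.2 in 93-11, this share was 18.9% (17.3 to 20.7%). The shares of 93-11-only peaks in these parts were 27.9% (25.3 to 30.6%) and 28.8% (27.01 to 30.6%). Within 2 Mb of a chromosome end, 19.9% (18.3 to 21.4%) of Nipponbare peaks were Nipponbare-only and 22.7% (22.1 to 23.4%) farther in. For 93-11-only peaks the values were 25.7% (24.1 to 27.4%) and 28.0% (27.3 to 28.7%). The 93-11-only share near ends minus that farther in was -1.74 points (-3.52 to 0.050) between lists of equal length. With 4 Mb from an end it was -1.34 points (-2.73 to 0.056). Both intervals, combined from those of the 2 shares, ran from negative to positive. For Nipponbare-only peaks these differences were -3.80 (-5.56 to -2.04) and -3.12 points (-4.46 to -1.79).

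Windows with few H3K4me3 peaks had the largest shares of single-parent H3K27me3 peaks in both lists. In the third of windows with the fewest H3K4me3 peaks (42 to 118 in both parents together), 31.8% (30.3 to 33.4%) of Nipponbare peaks were Nipponbare-only and 32.3% (30.7 to 33.8%) of 93-11 peaks 93-11-only. In the third with the most (186 to 258), these shares were 18.4% (17.5 to 19.3%) and 26.5% (25.6 to 27.5%). The lists thus differed in the windows rich in H3K4me3 and were level in the poor ones.

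The windows with most single-parent peaks were of different kinds. At chr12:6000000-7000000, 25 of 33 Nipponbare peaks were Nipponbare-only and 12 of 20 93-11 peaks were 93-11-only, so both lists had their own peaks there. At chr11:21000000-22000000 and chr11:27000000-28000000, 24 of 58 and 23 of 50 Nipponbare peaks were Nipponbare-only, and 7 of 41 and 5 of 33 93-11 peaks were 93-11-only. H3K4me3 peaks in the last of these windows numbered 58 in Nipponbare and 33 in 93-11. The 3 windows with most 93-11-only peaks each held 29: at chr1:6000000-7000000, at chr9:18000000-19000000 and at chr6:27000000-28000000. H3K4me3 was level in all 3, with 93 peaks in each parent on chromosome 1, 115 in Nipponbare and 111 in 93-11 on chromosome 9, and 94 and 95 on chromosome 6.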

How the data were processed

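The deposited files list, per library, chromosome, start and end of peak regions, with no header, height or score, per the files as deposited by the authors. Per the labels' protocols, chromatin of whole shoots was immunoprecipitated with an H3K27me3 antibody and sequenced on the Illumina platform. For the aligner, caller, threshold, control and build, nothing is given in the sources used here. Read depth is unknown. Width is end minus start. Positions are as in the files, and whether they count from 0 or 1 is not stated.

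Peaks of a list do not overlap each other. Overlap of 1 bp defined sharing, 1.5-fold a wider domain, gaps under 5 kb a cluster and 3 consecutive single-parent peaks a run. Chromosome length was the last peak end over all 16 lists. Organellar peaks, those outside the nuclear chromosomes (2 in Nipponbare), were kept in totals and left out of positions, gaps and runs. With 1 library per line no test was run. Named regions were the 5 widest single-parent peaks per line, the 5 largest width ratios per direction (wider peak at least 3000 bp), the 5 widest shared domains, and the 3 longest runs, largest clusters and richest windows per line. Members, rules and lists were chosen with earlier results of these data known. Alternatives were 50% reciprocal overlap, peaks at or above the median width, lists of equal length, merging of peaks under 500 bp apart and a 500 bp tolerance. Further ones were 2-fold, centred ratios, summed widths, runs of 5, 4 Mb from an end and no organellar peaks. The routines were tested on simulated data. Computation used scipy 1.17.1 and pandas 2.3.3 under Python 3.11.15 with numpy 2.4.6, and plots matplotlib 3.10.9. Not analysed here were 8 samples of mRNA and small RNA.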

Additional observations from a re-analysis of the deposited data

How the results depend on the processing

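No paired analysis was possible because each group holds 1 library. Of the values recomputed under an alternative, 48 stayed within the interval of the reported value (counts: within 1.5 times) and 30 did not. The median log2 width ratio and the differences near chromosome ends kept their sign. Counts were compared by size only, and the parent with the higher count changed in some settings. Runs numbered 293 in Nipponbare and 236 in 93-11 between lists of equal length, against 232 and 331 over the full lists. Centred ratios put 647 regions wider in Nipponbare and 613 in 93-11, against 585 and 698 uncentred. The order also changed at 2-fold and for runs of 5 or more. With 50% reciprocal overlap, 74.8% of Nipponbare and 69.7% of 93-11 peaks were shared, 378 regions were wider in Nipponbare, both hybrids listed 51.7% of Nipponbare-only and 50.5% of 93-11-only peaks, and H3K4me3 lay on 41.6% of Nipponbare-only peaks in 93-11. Between lists of equal length, 74.8% of each were shared, the median log2 width ratio was -0.039, both hybrids listed 50.3% of Nipponbare-only and 50.6% of 93-11-only peaks, and H3K4me3 lay on 41.7% of Nipponbare-only peaks in 93-11. A 500 bp tolerance gave 78.4% and 73.3% shared. Among peaks at or above the median width of their list, 75.7% of Nipponbare and 70.5% of 93-11 peaks were shared, 176 and 182 regions were wider in Nipponbare and 93-11, the median log2 ratio was -0.022, and runs numbered 135 and 193. Single-parent peaks there include ones opposite a narrower peak of the other parent: both hybrids listed 80.0% of Nipponbare-only and 78.6% of 93-11-only peaks, H3K4me3 in the other parent was at 47.9% and 58.4%, and the Nipponbare-only share near chromosome ends minus that farther in was -5.36 points, against -2.89 over all peaks. At 2-fold, 195 and 183 regions were wider in Nipponbare and 93-11, and runs of 5 or more numbered 54 and 44. The causes were not tested, beyond the fewer peaks that the median width, 2-fold and longer runs leave by construction. Lists with no scores leave the threshold, and with it the narrowest peaks, as a limit of these values.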
